A study of Mus musculus with 24 samples.

Results

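The genes described here are 9 trophic and repair factors of the Schwann cell, chosen by name out of the 49315 genes in the deposited table of read counts. They are Gdnf, Artn, Bdnf, Lif, Cntf, Nrg1, Shh, Ncam1 and Gap43, and each matched 1 row of the table. Of these 9, 7 passed the filter on low counts and were tested. Gap43 had 2 to 9 reads per library and Shh 0 or 1, so both were too low to judge. Cntf, with 13 to 47 reads, passed the filter but shares most of its exonic bases with another gene, so its values are uncertain. Bdnf, with 62 to 127 reads, could be tested only coarsely.

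When a peripheral nerve is cut, the Schwann cells beyond the cut leave the myelinating or Remak state and become repair cells, a switch that depends on the transcription factor c-Jun. Repair cells secrete factors that keep injured neurons alive and guide their axons. GDNF and artemin (Artn) act through GFRα co-receptors and the receptor tyrosine kinase RET, BDNF through TrkB and p75NTR, and LIF and CNTF through receptor complexes that contain gp130. Neuregulin 1 (Nrg1) acts on ERBB receptors, Sonic hedgehog (Shh) is a morphogen received by Patched, and NCAM1 and GAP43 are an adhesion molecule and a membrane protein of growing processes.

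RNA was sequenced from MS03 cells, an immortalised Schwann cell line in which both Nf2 alleles had been removed with Cre from a floxed mouse, so that every group, DMSO included, carries the Nf2-/- genotype. The cells are 1 line, grown in medium with serum. Nf2 had 2360 to 5066 reads per library, and a count over the whole gene cannot check which exons were removed. Each of 8 groups had 3 replicates and was treated for 24 hours. The groups were DMSO, the FAK kinase inhibitors defactinib, VS-4718, GSK2256098 and IN10018 (named ifebemtinib in the paper) at 1 µM each, the degrader PROTAC FAK degrader 1 at 1 µM, and the degraders GSK215 and BSJ-04-0146 at 0.1 µM each. A FAK degrader is a 2-ended molecule that brings the kinase to a ubiquitin ligase. Total counts ranged from 14472462 to 27449516 per library (median 22606532.5), and the 9 degrader libraries, at 14472462 to 21588406, lay below the other 15. The labels call the samples of a group biological replicates but do not name separate cultures, so p-values measure the spread between these samples.

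The Schwann cell label was checked on 12 marker genes. Sox10, the lineage transcription factor, had 238 to 2080 reads per library, whereas S100b had 1 to 18 and Gfap 1 to 9. The summed marker level was 85.0 to 87.3 CPM (reads of the gene per 1000000 reads of the library, scaled by edgeR's TMM method) in DMSO, 163 to 180 CPM with VS-4718, 336 to 348 CPM with GSK215 and 305 to 333 CPM with BSJ-04-0146, and it was 90.2 to 122 CPM over the 4 remaining groups. Among 8 fibroblast markers, Col1a1, Col1a2 and Col3a1 were abundant and Dcn, Lum and Thy1 had at most 3 reads in any library. The sum of the 8, mostly Col1a2, was 2096 to 2155 CPM in DMSO, 1342 to 1358 CPM with PROTAC FAK degrader 1, 1889 to 1980 CPM with BSJ-04-0146, 1935 to 2018 CPM with IN10018, 2036 to 2128 CPM with VS-4718, 2215 to 2302 CPM with defactinib and GSK2256098 and 2352 to 2426 CPM with GSK215. By gene, 5 of these markers were tested, and the sum does not stand for each. Brackets give the median log2 fold change and the share of all tested genes called in either direction (edgeR adjusted p under 0.05). BSJ-04-0146 raised 3 and lowered 2 (0.58, 54.6%) and VS-4718 raised 3 and lowered 1 (0.27, 39.2%). GSK215 raised 4 and lowered 1 (0.95, 54.7%) and PROTAC FAK degrader 1 raised 1 and lowered 4 (−0.45, 66.8%). Defactinib raised 3 (0.21, 22.4%), GSK2256098 raised 3 (0.17, 12.5%) and IN10018 lowered 1 (−0.0091, 13.3%). The macrophage genes Ptprc, Adgre1 and Itgam had 0 or 1 read. The sum of the 6 macrophage markers, mostly Cd68, was 3.71 to 4.10 CPM in DMSO. It was 11.2 to 12.0 CPM with PROTAC FAK degrader 1, 7.90 to 9.34 CPM with BSJ-04-0146 and 6.20 to 7.88 CPM with GSK215. With VS-4718 it was 5.20 to 6.21 CPM, with defactinib 4.58 to 5.28 CPM and with GSK2256098 4.28 to 4.60 CPM. All of these lay above DMSO, and IN10018, at 3.79 to 4.43 CPM, overlapped it. The sum of 5 melanocyte markers, mostly Mitf, was 17.7 to 19.0 CPM with PROTAC FAK degrader 1, 8.73 to 9.88 CPM with GSK215, 8.35 to 10.1 CPM with BSJ-04-0146 and 5.62 to 6.39 CPM with GSK2256098 against 6.77 to 6.97 CPM in DMSO, while Tyr, Dct and Mlana had at most 2 reads in any library. The summed neuronal list, nearly all of it Tubb3, was 2.99 to 3.346 CPM in DMSO. It was 4.15 to 5.09 CPM with VS-4718, 4.27 to 5.45 CPM with GSK215 and 3.60 to 5.54 CPM with BSJ-04-0146. GSK2256098 (3.44 to 3.80 CPM) and, narrowly, PROTAC FAK degrader 1 (3.354 to 4.83 CPM) also lay above DMSO. Defactinib (3.01 to 3.96 CPM) and IN10018 (2.65 to 4.74 CPM) overlapped it. The summed endothelial list was at most 0.790 CPM. The part of these shifts in the results on the trophic genes was not tested. In bulk RNA, fewer cells of a type and less RNA per cell cannot be told apart.

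The members lie on 9 chromosomes of GRCm38 and are protein-coding (GENCODE M21). Gdnf (ENSMUSG00000022144) is at chr15:7810846-7837575 on the plus strand, Artn (ENSMUSG00000028539) at chr4:117926162-117929763 on the minus strand and Lif (ENSMUSG00000034394) at chr11:4257557-4272514 on the plus strand. Nrg1 (ENSMUSG00000062991) is at chr8:31814551-32884029 on the minus strand, Ncam1 (ENSMUSG00000039542) at chr9:49502136-49798925 on the minus strand and Bdnf (ENSMUSG00000048482) at chr2:109674700-109727007 on the plus strand. Cntf (ENSMUSG00000079415) is at chr19:12763660-12765632, Gap43 (ENSMUSG00000047261) at chr16:42248442-42340651 and Shh (ENSMUSG00000002633) at chr5:28456815-28467256, all on the minus strand.

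The stretches upstream of Artn, Gdnf and Lif are shown because these are the 3 ligands with the highest level per length and their levels moved with several drugs. They come from RefSeq's windows on GRCm38.p6 and are written 5′ to 3′ on the gene's own strand. Capitals mark the letters TGACTCA, the element that c-Jun and its Fos-family partners bind as AP-1, searched on both strands (TGACTCA or TGAGTCA). The Artn window is chr4:117929764-117930013. The Gdnf windows are chr15:7809798-7810047 and chr15:7813477-7813726, which lie before the annotated gene and inside its bounds. The Lif window is chr11:4257318-4257556, ended before the annotated first exon.
Artn: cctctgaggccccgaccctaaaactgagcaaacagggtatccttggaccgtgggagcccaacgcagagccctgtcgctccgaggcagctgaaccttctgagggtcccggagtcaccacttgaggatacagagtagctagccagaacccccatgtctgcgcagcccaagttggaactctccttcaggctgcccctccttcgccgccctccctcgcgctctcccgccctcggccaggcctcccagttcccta
Gdnf, upstream start: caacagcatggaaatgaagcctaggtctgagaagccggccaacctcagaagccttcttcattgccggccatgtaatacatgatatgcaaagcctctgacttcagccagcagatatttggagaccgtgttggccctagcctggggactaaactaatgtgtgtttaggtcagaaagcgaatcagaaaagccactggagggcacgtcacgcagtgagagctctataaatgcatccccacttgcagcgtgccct
Gdnf, inner start: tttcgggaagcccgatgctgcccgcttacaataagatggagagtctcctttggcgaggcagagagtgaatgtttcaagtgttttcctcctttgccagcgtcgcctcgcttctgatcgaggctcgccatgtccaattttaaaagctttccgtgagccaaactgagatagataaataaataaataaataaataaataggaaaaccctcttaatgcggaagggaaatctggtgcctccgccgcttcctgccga
Lif: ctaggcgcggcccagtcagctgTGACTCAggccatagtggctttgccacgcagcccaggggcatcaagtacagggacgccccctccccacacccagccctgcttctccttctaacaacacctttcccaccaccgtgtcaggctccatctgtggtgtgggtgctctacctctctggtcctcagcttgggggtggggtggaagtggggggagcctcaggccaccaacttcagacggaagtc
The Lif window and that of Cntf held the 7 letters once each, and those of Artn, Gdnf and Bdnf did not. Of 32851 mouse windows of 250 bases, 4.46% held them on either strand. The related letters TGACGTCA were in none of the members' windows and in 1.55% of all windows. The RefSeq table matched 5 of the 9 members.

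Per kilobase of exon, Artn and Gdnf had the highest levels of the 9, with medians over the 24 libraries of 21.1 and 18.8 CPM per kb. Lif followed at 7.80 and Ncam1 at 6.64 CPM per kb. Nrg1 was at 1.29, Cntf at 1.17 and Bdnf at 0.650 CPM per kb. The value for Cntf divides by all 1073 exonic bases, 847 of them shared with another gene, so its place in this order is uncertain. Gap43 was at 0.159 CPM per kb and Shh at 0. The order of neighbours depended on the group: in DMSO, Artn and Gdnf were at 17.9 and 18.0 CPM per kb and Nrg1 and Cntf at 1.53 and 1.29, whereas with GSK215 Nrg1 and Cntf were at 0.79 and 1.14 and Lif and Ncam1 at 7.10 and 8.14. The range of Artn over the libraries, 17.3 to 31.0 CPM per kb, overlapped that of Gdnf, 15.8 to 23.7 CPM per kb, and the range of Lif, 6.07 to 10.3, overlapped that of Ncam1, 5.64 to 8.71.

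**Figure D1:**
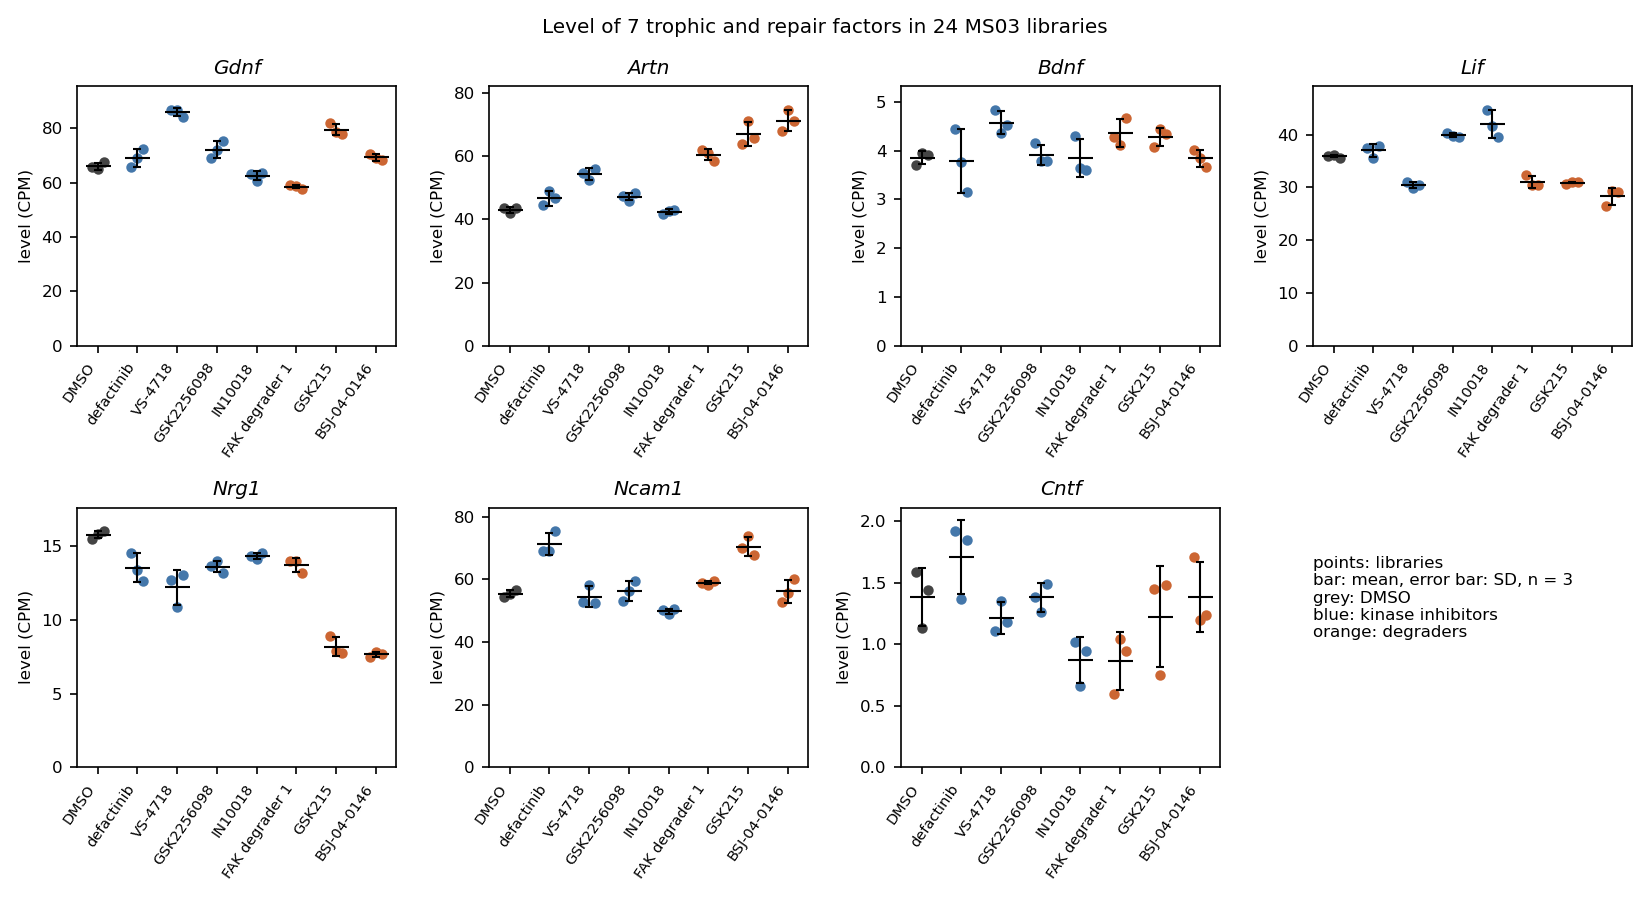
Level in CPM (TMM-scaled) of the 7 tested genes in each library, by treatment; points are libraries, the bar is the mean and the error bar the SD (n = 3), and each axis starts at 0. Artn is highest in the 3 degrader groups, and Nrg1 is near 8 CPM with GSK215 and BSJ-04-0146 against about 16 CPM in DMSO.

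Each drug was compared with DMSO over 16070 tested genes with edgeR's quasi-likelihood test and a Benjamini-Hochberg adjusted p under 0.05. With defactinib, 1 of the 7 tested members rose and 1 fell, where 22.4% of all tested genes were called in either direction. VS-4718 raised 2 and lowered 2 (39.2% of all genes), GSK2256098 raised 2 and lowered 1 (12.5%) and IN10018 raised 1 and lowered 1 (13.3%). Among the degraders, PROTAC FAK degrader 1 raised 1 and lowered 4 (66.8%), GSK215 raised 3 and lowered 2 (54.7%) and BSJ-04-0146 raised 1 and lowered 2 (54.6%). With library totals in place of TMM, PROTAC FAK degrader 1 raised 2 and lowered 3, GSK215 raised 3 and lowered 1, BSJ-04-0146 raised 3 and lowered 2, GSK2256098 raised 3 and lowered none and defactinib raised 2 and lowered 1. Most tested genes were called with each degrader. The median log2 fold change of the 7 members lay between −0.17 (PROTAC FAK degrader 1) and 0.15 (GSK215), with medians over all tested genes of 0.0045 and 0.021 for the same drugs. In order of size, the largest called changes were those of Nrg1 with BSJ-04-0146 and GSK215, which fell by 1.04 and 0.95 on the log2 scale, of Artn with BSJ-04-0146 (0.73), of Cntf with PROTAC FAK degrader 1 (−0.69, a call lost without single libraries) and of Artn with GSK215 (0.64). The 7 comparisons share the 3 DMSO libraries.

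**Figure D2:**
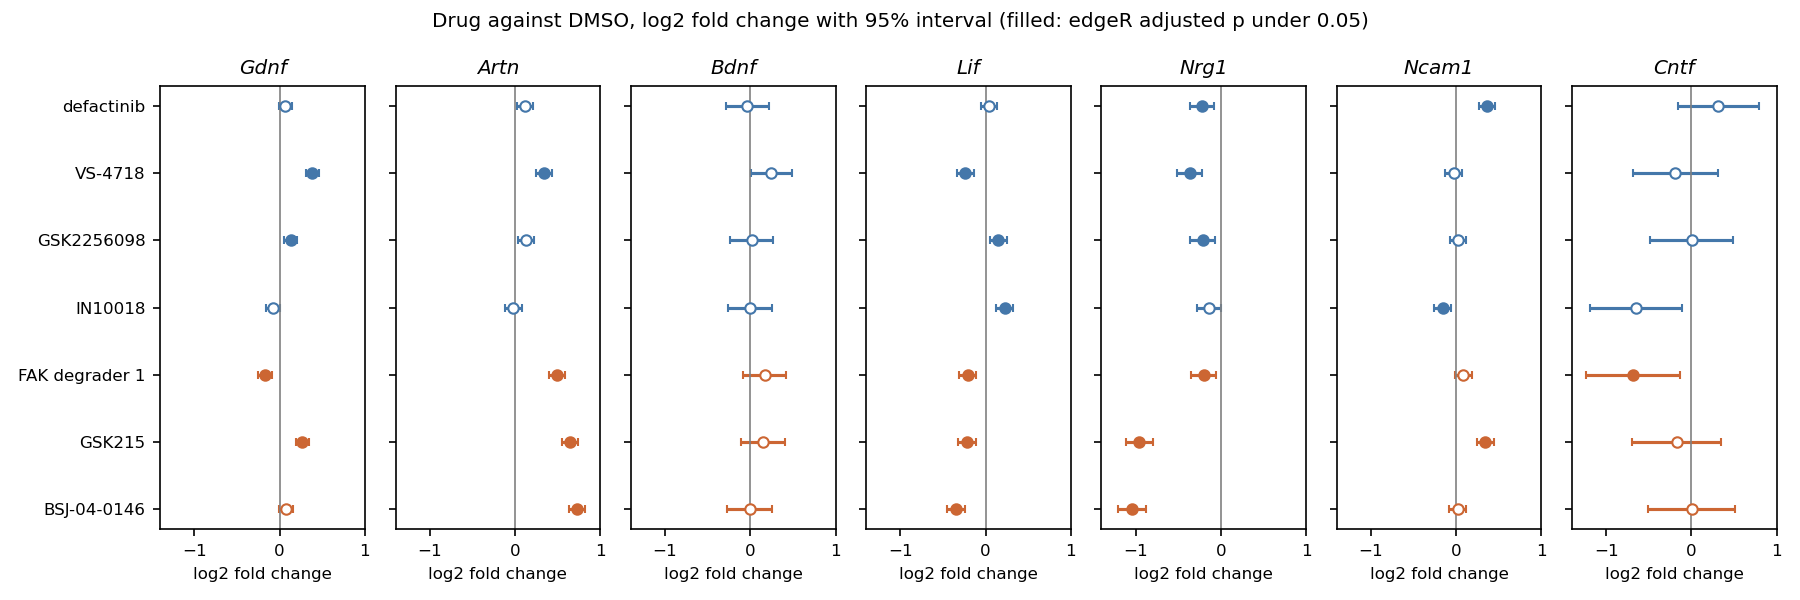
Log2 fold change of each tested gene for each drug against DMSO, with its 95% interval from edgeR; filled points passed an adjusted p under 0.05. The intervals of Artn lie above 0 for all 3 degraders, and those of Nrg1 lie at or below −0.79 for GSK215 and BSJ-04-0146.

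Artn encodes artemin, the GDNF family ligand that signals through GFRα3. In DMSO its level was 43.6, 41.8 and 43.4 CPM. With BSJ-04-0146 it was 68.0, 74.6 and 71.0 CPM, a log2 fold change of 0.73 (SE 0.046, edgeR adjusted p = 8.4e-17). With GSK215 it was 63.8, 71.1 and 65.8 CPM (log2 fold change 0.64, SE 0.046, edgeR adjusted p = 4.5e-15). Every library of both degraders lay above every DMSO library. PROTAC FAK degrader 1 gave 61.7, 61.0 and 58.3 CPM and a log2 fold change of 0.49 (SE 0.046, edgeR adjusted p = 3.1e-12), again without overlap with DMSO. Among the kinase inhibitors, VS-4718 raised Artn to 54.8, 52.4 and 55.9 CPM, by 0.34 (SE 0.045, edgeR adjusted p = 8.25e-08). GSK2256098 (47.3, 45.9 and 48.2 CPM) and defactinib (44.4, 48.9 and 46.6 CPM) also lay above all DMSO libraries, but their differences of 0.13 and 0.12 did not pass the threshold (edgeR adjusted p = 0.051 and 0.063). Both passed it with library totals in place of TMM and with only the 6 libraries of the comparison, and defactinib also without its replicate 1 (log2 fold change 0.15, edgeR adjusted p = 0.035). IN10018 gave 41.6, 42.5 and 43.0 CPM, which overlapped DMSO (log2 fold change −0.019, 95% interval −0.12 to 0.078). In the order of mean levels, BSJ-04-0146 and GSK215 overlapped, both lay apart from PROTAC FAK degrader 1 and this from VS-4718, while GSK2256098 overlapped defactinib and DMSO overlapped IN10018.

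Gdnf, the founding ligand of the family and a survival factor for motor neurons, moved less than Artn with the 3 degraders. Its level in DMSO was 65.6, 65.0 and 67.4 CPM. VS-4718 raised it to 86.8, 86.9 and 84.3 CPM, a log2 fold change of 0.38 (SE 0.038, edgeR adjusted p = 1.0e-10), and GSK215 to 81.9, 78.6 and 78.1 CPM (0.27, SE 0.039, edgeR adjusted p = 2.8e-07). Both groups lay above all DMSO libraries, and VS-4718 above GSK215. With PROTAC FAK degrader 1 Gdnf was 59.0, 58.9 and 57.9 CPM, below all DMSO libraries (log2 fold change −0.17, SE 0.040, edgeR adjusted p = 0.000295); with library totals this change was −0.090 (edgeR adjusted p = 0.046). GSK2256098 gave 69.2, 72.0 and 75.4 CPM and a rise of 0.13 (SE 0.039, edgeR adjusted p = 0.022), a call that was lost without DMSO replicate 1 or 2 or without GSK2256098 replicate 2 or 3 (0.092 to 0.13, edgeR adjusted p = 0.068 to 0.20) and with no filter on low counts (edgeR adjusted p = 0.069). Defactinib (65.9, 69.2 and 72.3 CPM), BSJ-04-0146 (70.7, 69.1 and 68.2 CPM) and IN10018 (63.4, 60.6 and 63.6 CPM) did not pass the threshold, with 95% intervals of −0.011 to 0.15, −0.010 to 0.15 and −0.16 to 0.0029. All libraries of BSJ-04-0146 lay above and all of IN10018 below every DMSO library, while defactinib overlapped DMSO. The call for BSJ-04-0146 was gained with library totals in place of TMM.

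The 2 ligands were also set against each other inside each library, a ratio that no scaling between libraries changes. In DMSO there were 64.4 to 66.4 Artn reads per 100 Gdnf reads. The 4 kinase inhibitors gave 60.3 to 70.7, and each overlapped DMSO. With PROTAC FAK degrader 1 there were 101 to 105, BSJ-04-0146 96.1 to 108 and GSK215 77.9 to 90.5, and none of these overlapped DMSO (p = 0.10 for every degrader in an exact two-sided permutation test, and 3 against 3 libraries cannot give less). The ratio therefore separated the degraders from DMSO also for PROTAC FAK degrader 1, with which Artn rose and Gdnf fell.

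**Figure D3:**
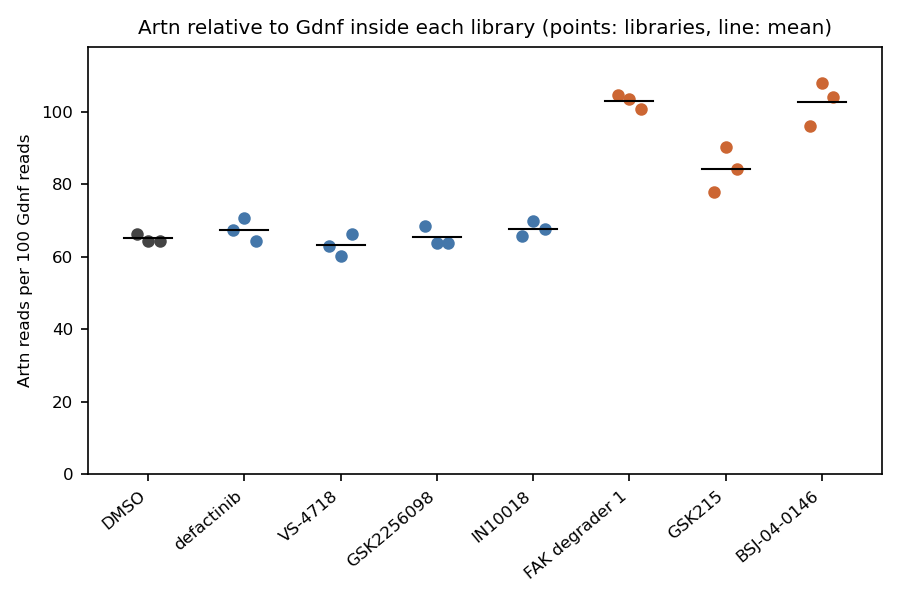
Artn reads per 100 Gdnf reads in each of the 24 libraries, by treatment; points are libraries, lines are group means, and the axis starts at 0. The 15 libraries of DMSO and the kinase inhibitors lie at 60.3 to 70.7 and the 9 degrader libraries at 77.9 to 108.

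Of 7 receptor and modifier genes of the GDNF family, 4 were tested. The heparan sulphate proteoglycan Sdc3, which binds GDNF family ligands, and the co-receptor genes Gfra2 and Gfra1 had the highest means over the 24 libraries, at 63.6, 69.4 and 10.3 CPM in DMSO. All 4 tested genes rose with GSK215 and with BSJ-04-0146, where 54.7% and 54.6% of all tested genes were called in either direction. Sdc3 rose by 1.38 and 1.48, Gfra1 by 0.98 and 1.17 and Gfra2 by 0.89 and 0.25 on the log2 scale with these degraders. By contrast, PROTAC FAK degrader 1 raised Sdc3 by 0.16 and lowered Gfra1 (log2 fold change −0.55) and Gfra2 (−0.11). Over the tested genes of the list the median log2 fold change was 1.06 with GSK215, 1.15 with BSJ-04-0146 and 0.021 with PROTAC FAK degrader 1, where the medians over all tested genes were 0.021, 0.018 and 0.0045. Defactinib raised 3 of the 4 (22.4% of all genes called), VS-4718 and GSK2256098 2 each (39.2% and 12.5%) and IN10018 none (13.3%). Ret, the shared signalling receptor, had 0 to 2 reads in any library, and Gfra3, the co-receptor of artemin, had 0 reads in all 24, and neither was tested.

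Bdnf, a neurotrophin, was low and called by none of the 7 drugs. Its level was 3.71, 3.95 and 3.91 CPM in DMSO and 4.84, 4.37 and 4.52 CPM with VS-4718, the highest group, with a log2 fold change of 0.25 (95% interval 0.0047 to 0.49, edgeR adjusted p = 0.10). GSK215 (4.07, 4.43 and 4.34 CPM) and PROTAC FAK degrader 1 (4.27, 4.12 and 4.67 CPM) gave 0.15 and 0.17 (95% intervals −0.11 to 0.41 and −0.080 to 0.42). These 3 groups lay above all DMSO libraries. The other groups overlapped DMSO, with GSK2256098 at 4.15, 3.79 and 3.80 CPM, IN10018 at 4.29, 3.65 and 3.61, BSJ-04-0146 at 4.01, 3.85 and 3.66 and defactinib, the most variable, at 4.45, 3.78 and 3.15 CPM. No neighbours in the order of group means were separate. Exons of Bdnf share 896 bases with the antisense gene Gm45346, which had 0 reads in every library.

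Of 14 neurotrophin receptor and processing genes, 8 were tested. The protease gene Furin, the sortilin gene Sort1 and the plasminogen activator gene Plat were the most abundant over the 24 libraries, at 109, 104 and 75.4 CPM in DMSO. GSK215 and BSJ-04-0146 each raised 6 of the 8, where 54.7% and 54.6% of all tested genes were called, and lowered Plat (log2 fold changes −0.20 and −0.57). Furin rose by 0.38 and 0.34 and Sort1 by 0.46 and 0.38 with these 2 degraders, and VS-4718 raised Furin by 0.57. Ngfr, the p75 neurotrophin receptor and a gene that repair Schwann cells induce, was at 10.4 CPM in DMSO. It rose by 2.63 with GSK215, 2.28 with BSJ-04-0146, 1.76 with VS-4718, 0.77 with GSK2256098 and 0.65 with defactinib, and its log2 fold change with PROTAC FAK degrader 1 was −1.09. That degrader lowered 4 of the 8 and raised 1, near its share over all genes (66.8%), defactinib raised 3 (22.4%), VS-4718 and GSK2256098 raised 4 each (39.2% and 12.5%), and IN10018 called none (13.3%). The median log2 fold change of the 8 was 1.04, 0.94 and −0.49 with GSK215, BSJ-04-0146 and PROTAC FAK degrader 1. Ntrk2 and Ntrk3, which encode the receptors TrkB and TrkC, had at most 2 reads in any library.

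Lif encodes leukaemia inhibitory factor, an interleukin 6 family cytokine. In DMSO its level was 36.0, 36.1 and 35.6 CPM. It was lowest with BSJ-04-0146, at 26.4, 29.4 and 29.1 CPM (log2 fold change −0.34, SE 0.052, edgeR adjusted p = 4.15e-07). VS-4718 gave 31.0, 30.0 and 30.5 CPM, a log2 fold change of −0.24 (SE 0.048, edgeR adjusted p = 0.00013). With PROTAC FAK degrader 1 the level was 32.3, 30.4 and 30.5 CPM, and with GSK215 it was 30.7, 31.0 and 31.0 CPM. Their log2 fold changes were −0.21 (SE 0.050, edgeR adjusted p = 0.00034) and −0.22 (SE 0.051, edgeR adjusted p = 0.00040), and all 4 groups lay below every DMSO library. With library totals the change was −0.13 for PROTAC FAK degrader 1 (edgeR adjusted p = 0.023), and the call for GSK215 was lost (−0.093, edgeR adjusted p = 0.12).

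Lif rose with 2 of the kinase inhibitors. IN10018 gave 44.7, 41.6 and 39.5 CPM, a rise of 0.22 (SE 0.047, edgeR adjusted p = 0.00096). GSK2256098 gave 40.3, 39.7 and 39.6 CPM and a rise of 0.15 (SE 0.047, edgeR adjusted p = 0.028), and this call was lost when any 1 of the 3 DMSO or 3 GSK2256098 libraries was left out (0.14 to 0.15, edgeR adjusted p = 0.075 to 0.099), with DESeq2 (adjusted p = 0.052) and with no filter (edgeR adjusted p = 0.094). Defactinib, at 37.5, 35.6 and 37.8 CPM, overlapped DMSO (0.044, 95% interval −0.053 to 0.14). IN10018 and GSK2256098 overlapped each other, as did PROTAC FAK degrader 1, GSK215 and VS-4718, and BSJ-04-0146 lay below them all.

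Cntf, a survival factor made by mature Schwann cells, had 13 to 47 reads. Of its 1073 exonic bases, 847 are shared with Zfp91 on the same strand, a gene with 3131 to 5949 reads per library, which leaves 226 bases of its own. Whether reads in the shared part were dropped or assigned is not given in the sources used here. In DMSO the level was 1.58, 1.13 and 1.44 CPM and with PROTAC FAK degrader 1 it was 0.597, 1.04 and 0.945 CPM, below all DMSO libraries (log2 fold change −0.69, SE 0.27, edgeR adjusted p = 0.025). That call was lost without DMSO replicate 1, without DMSO replicate 3 and without PROTAC FAK degrader 1 replicate 1 (−0.65 to −0.46, edgeR adjusted p = 0.061 to 0.18). IN10018, at 1.02, 0.663 and 0.947 CPM, also lay below DMSO but was not called (−0.65, 95% interval −1.18 to −0.11, edgeR adjusted p = 0.10). The 5 other drugs overlapped DMSO, at 1.71 CPM on average with defactinib, 1.38 with GSK2256098, 1.38 with BSJ-04-0146, 1.22 with GSK215 and 1.21 with VS-4718. Zfp91 itself changed by −0.18 with PROTAC FAK degrader 1 (edgeR adjusted p = 8.1e-06). It was also called lower with BSJ-04-0146 (−0.20), VS-4718 (−0.19) and GSK215 (−0.15), with which Cntf was not called. On the log2(CPM + 4) scale with limma, the change of Cntf with PROTAC FAK degrader 1 was −0.15 (limma adjusted p = 0.019). This value is smaller because the added 4 CPM exceed the level of Cntf.

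On the receiving side, 9 of 10 listed genes were tested. Il6st, which encodes the gp130 subunit shared by LIF and CNTF receptors, was at 287 CPM in DMSO, the kinase gene Jak1 at 140 and the transcription factor gene Stat3 at 54.0. Il6st rose by 0.30 with GSK215 and 0.20 with defactinib, and its log2 fold change was −0.17 with IN10018. Stat3 rose by 0.62 with PROTAC FAK degrader 1. That degrader called 6 of the 9, near the 66.8% called in either direction over all genes. All 6 were raised, where 5484 of the 16070 tested genes were raised and 5257 lowered. GSK215 raised 3 and lowered 1 (54.7% of all genes called), BSJ-04-0146 raised 4 and lowered 1 (54.6%) and VS-4718 raised 5 (39.2%). Defactinib raised 1 and lowered 2 (22.4%), GSK2256098 raised 1 (12.5%), and IN10018 raised 1 and lowered 1 (13.3%). The 9 genes had median log2 fold changes of 0.27, 0.23 and 0.41 with GSK215, BSJ-04-0146 and PROTAC FAK degrader 1. The LIF receptor gene Lifr had 8 to 39 reads and the CNTF receptor gene Cntfr 6 to 29.

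Nrg1, the growth factor gene whose axonal form controls myelination and whose expression Schwann cells start after injury, fell with 6 of the 7 drugs. Its level in DMSO was 15.5, 15.8 and 16.0 CPM. BSJ-04-0146 gave 7.48, 7.81 and 7.68 CPM, a log2 fold change of −1.04 (SE 0.082, edgeR adjusted p = 5.7e-14), and GSK215 gave 8.93, 7.91 and 7.75 CPM, a log2 fold change of −0.95 (SE 0.081, edgeR adjusted p = 4.3e-13). The level with these 2 degraders was 48.5% and 51.9% of that in DMSO, and their libraries lay apart from those of all other groups. VS-4718, at 12.7, 10.9 and 13.0 CPM, gave −0.37 (SE 0.070, edgeR adjusted p = 5.1e-05).

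The remaining changes of Nrg1 were small. Defactinib gave 14.6, 13.4 and 12.6 CPM (log2 fold change −0.22, edgeR adjusted p = 0.018), lost without DMSO replicate 3 or defactinib replicate 3 (−0.22 to −0.18, edgeR adjusted p = 0.055 to 0.12). GSK2256098 gave 13.7, 14.0 and 13.2 CPM (−0.21, edgeR adjusted p = 0.039), lost when any 1 of its 3 libraries or of the 3 DMSO libraries was left out (−0.24 to −0.20, edgeR adjusted p = 0.064 to 0.13). It was also lost with DESeq2 (adjusted p = 0.064), library totals (edgeR adjusted p = 0.054), no filter (edgeR adjusted p = 0.099) and limma-trend (limma adjusted p = 0.066). PROTAC FAK degrader 1 gave 14.0, 14.0 and 13.2 CPM (−0.20, edgeR adjusted p = 0.014), lost without its replicate 3 (−0.17, edgeR adjusted p = 0.069) and with library totals (−0.12, edgeR adjusted p = 0.15). IN10018, at 14.3, 14.1 and 14.5 CPM, was not called (−0.14, 95% interval −0.29 to 0.0010), although all of its libraries lay below DMSO. These groups overlapped one another in part, and DMSO was the highest group of the 8. Exons of Nrg1 share 482 of 10351 bases with the antisense gene Gm26578 (8 to 39 reads), and counts per gene do not tell the Nrg1 isoforms apart.

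Of 10 listed neuregulin receptor and sheddase genes, 9 were in the table and 6 were tested. Adam10, Adam17 and Bace1, proteases that cut neuregulins from the membrane or process them, were at 152, 114 and 103 CPM in DMSO. GSK215 raised 5 of the 6 (54.7% of all genes called), Adam10 by 0.35, Adam17 by 0.26 and Bace1 by 0.28, and BSJ-04-0146 raised 4 (54.6%), these 3 by 0.34, 0.11 and 0.13. In contrast, PROTAC FAK degrader 1 lowered 5 of the 6 (66.8% of all genes called in either direction), with log2 fold changes of −0.61, −0.31 and −0.43 for the same genes, and raised the receptor gene Erbb3. Defactinib raised all 6 (22.4%), VS-4718 raised 4 (39.2%) and GSK2256098 raised 3 (12.5%), while IN10018 lowered 3 (13.3%). The median log2 fold change of these 6 genes was 0.27, 0.12 and −0.52 with GSK215, BSJ-04-0146 and PROTAC FAK degrader 1. Erbb3, the neuregulin receptor of Schwann cells, was at 3.48 CPM in DMSO and rose by 2.55 with GSK215, 2.37 with BSJ-04-0146, 1.53 with VS-4718, 1.03 with defactinib, 0.78 with GSK2256098 and 0.63 with PROTAC FAK degrader 1. These are the 6 drugs with which the ligand gene Nrg1 was called lower. Its calls with defactinib, GSK2256098 and PROTAC FAK degrader 1 were lost under some alternatives, and the match between the 2 genes was not tested. Erbb4 had 0 reads in all 24 libraries.

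Shh was too low to judge. It had 0 reads in 21 libraries and 1 read in VS-4718 replicate 1, IN10018 replicate 3 and PROTAC FAK degrader 1 replicate 1, 3 reads in 521732226. In DMSO, 0 of 75528096 reads allow a level of up to 0.0397 per 1000000 reads, without TMM scaling (3 counts over the group, counting error only). In the 4 drug groups with 0 reads the same limit was 0.0417 to 0.0597 per 1000000 reads. A fall, or a rise within these limits, could therefore not be detected at this depth. The relatives Dhh, the hedgehog ligand of developing Schwann cells, and Ihh had 166 to 396 and 0 to 8 reads, and Dhh was raised by defactinib (log2 fold change 0.47) and PROTAC FAK degrader 1 (0.66).

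Of 17 hedgehog pathway genes, 13 were tested. Smo, which encodes the signal transducer, and the co-receptor genes Cdon and Gas1 had the highest means over the 24 libraries, at 244, 176 and 53.8 CPM in DMSO, where Gli3 (81.7 CPM) and Ptch1 (63.1 CPM) lay above Gas1. Smo fell by 0.95 on the log2 scale with PROTAC FAK degrader 1. Gas1 rose by 1.12 with GSK215 and 1.13 with BSJ-04-0146, and Cdon by 0.71 and 0.30. GSK215 raised 4 of the 13 and lowered 2 (54.7% of all genes called). BSJ-04-0146 raised 5 and lowered 5 (54.6%) and PROTAC FAK degrader 1 raised 5 and lowered 6 (66.8%). Defactinib raised 5 (22.4%), VS-4718 raised 5 and lowered 3 (39.2%), GSK2256098 raised 4 (12.5%) and IN10018 lowered 2 (13.3%). The 13 genes had median log2 fold changes of −0.076, −0.082 and −0.048 with GSK215, BSJ-04-0146 and PROTAC FAK degrader 1. The hedgehog target gene Gli1 had 4 to 29 reads and was called by none of the drugs.

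Gap43, the growth-associated protein of regenerating axons that immature Schwann cells also make, had 2 to 9 reads per library and was too low to judge. The reads of the 3 libraries together were 14 in DMSO, 10 with defactinib, 25 with VS-4718, 12 with GSK2256098, 19 with IN10018, 20 with PROTAC FAK degrader 1, 12 with GSK215 and 15 with BSJ-04-0146. This is 0.185 counts per 1000000 reads in DMSO (95% exact Poisson interval 0.101 to 0.311, counting error only) and 0.341 with PROTAC FAK degrader 1 (0.208 to 0.526), the highest group. These intervals overlap, and those of the other 6 drugs overlap that of DMSO too. In CPM, the libraries of PROTAC FAK degrader 1 (0.322, 0.365 and 0.315) and VS-4718 (0.343, 0.306 and 0.342) lay above those of DMSO (0.136, 0.188 and 0.247), a difference of a few reads per library.

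**Figure D4:**
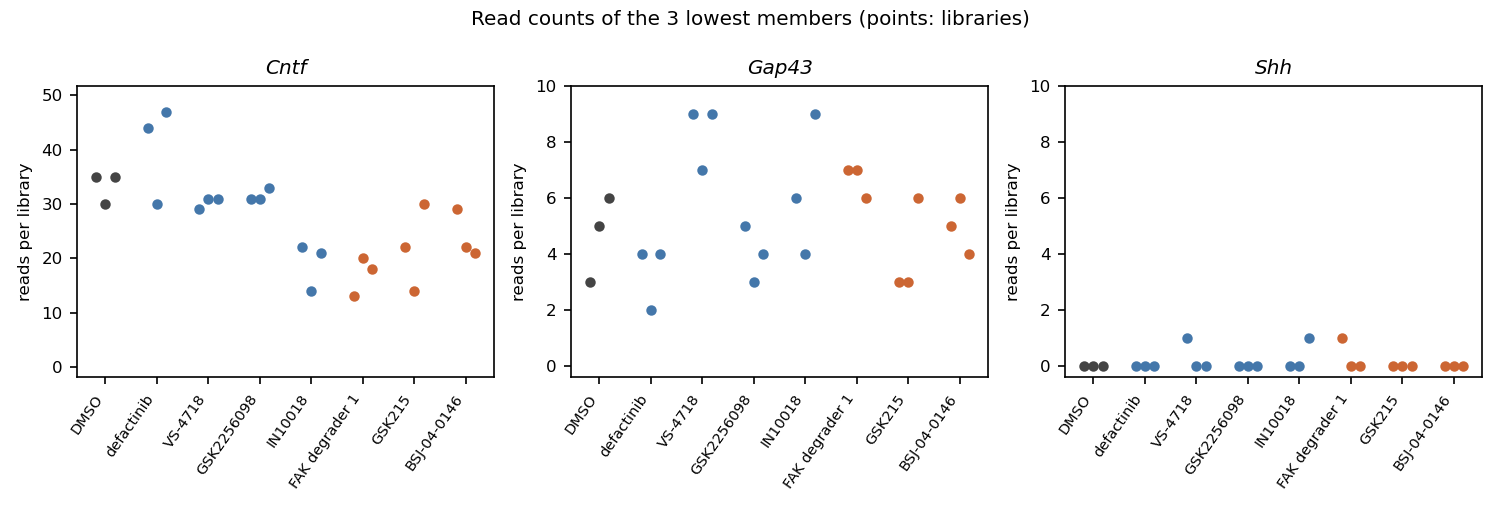
Read counts per library of Cntf, Gap43 and Shh, by treatment; points are libraries. Cntf lies at 13 to 47 reads, Gap43 at 2 to 9 and Shh at 0 or 1, and the last 2 were not tested.

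Ncam1, a homophilic adhesion molecule of non-myelinating and repair Schwann cells, was at 54.5, 55.3 and 56.7 CPM in DMSO. Defactinib raised it to 69.3, 69.2 and 75.4 CPM (log2 fold change 0.36, SE 0.047, edgeR adjusted p = 2.4e-07) and GSK215 to 69.9, 73.8 and 67.8 CPM (0.34, SE 0.048, edgeR adjusted p = 9.7e-08). These 2 groups overlapped each other and lay above all libraries of the 6 other groups. IN10018 gave 50.2, 48.9 and 50.5 CPM, below all DMSO libraries (−0.15, SE 0.049, edgeR adjusted p = 0.030), and this call was lost without any 1 of its 3 libraries and without DMSO replicate 2 or 3 (−0.17 to −0.14, edgeR adjusted p = 0.060 to 0.11). PROTAC FAK degrader 1, at 59.0, 58.4 and 59.4 CPM, lay above DMSO but was not called (0.086, 95% interval −0.013 to 0.18), except with library totals. VS-4718 (52.7, 58.3 and 52.4 CPM), GSK2256098 (53.2, 56.4 and 59.6 CPM) and BSJ-04-0146 (52.8, 55.7 and 60.0 CPM) overlapped DMSO, with 95% intervals of −0.13 to 0.068, −0.075 to 0.12 and −0.084 to 0.12. With library totals the call for BSJ-04-0146 was gained. Exons of Ncam1 share 417 of 8664 bases with the antisense gene Gm11149 (2 to 11 reads).

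Of 13 partners of NCAM1 and growth genes like Gap43, 8 were tested. The cadherin gene Cdh2 and the GAP43-like membrane substrates Marcks and Marcksl1 were the most abundant over the 24 libraries, at 196, 94.6 and 98.6 CPM in DMSO. Of these 8, PROTAC FAK degrader 1 called 6, near its share of 66.8% called in either direction over all genes. All 6 were lowered, where 5257 of the 16070 tested genes were lowered and 5484 raised. With this degrader the log2 fold change was −1.44 for Cdh2 and −1.17 for Marcksl1. GSK215 raised 6 and lowered 1 (54.7%), and BSJ-04-0146 raised 4 and lowered 2 (54.6%), with Marcks up by 0.67 and 0.37. Defactinib and VS-4718 raised 5 each (22.4% and 39.2%), GSK2256098 raised 4 (12.5%) and IN10018 lowered 2 (13.3%). The median over the 8 was 0.43, 0.33 and −0.85 with GSK215, BSJ-04-0146 and PROTAC FAK degrader 1. St8sia2 and St8sia4, the enzymes that add polysialic acid to NCAM1, had at most 2 reads in any library.

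**Figure D5:**
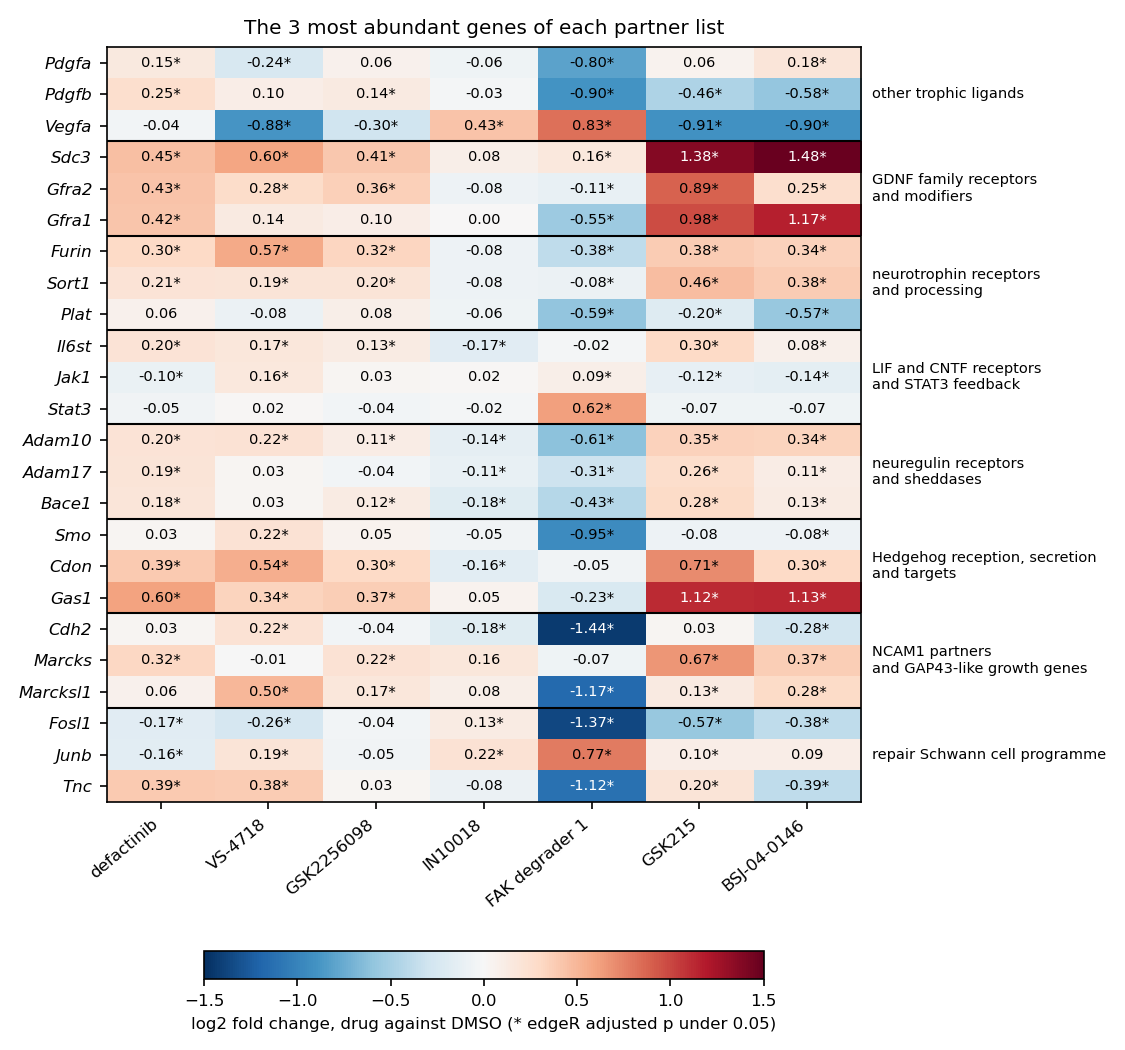
Log2 fold change of each drug against DMSO for the 3 genes with the highest mean over the 24 libraries in each of 8 lists; the colour scale and the printed number give the log2 fold change, and a star marks an edgeR adjusted p under 0.05. Sdc3 and Gas1 rose by over 1 with GSK215 and BSJ-04-0146, whereas Cdh2, Marcksl1, Fosl1 and Tnc fell by over 1 with PROTAC FAK degrader 1.

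Of 17 genes of the repair Schwann cell programme, 16 were tested. Its regulator Jun was at 100 CPM in DMSO and fell with 5 of the 7 drugs. Its log2 fold change was −0.54 with GSK215, −0.47 with BSJ-04-0146, −0.45 with VS-4718, −0.31 with defactinib and −0.30 with PROTAC FAK degrader 1, and it rose by 0.16 with IN10018. The AP-1 gene Fosl1 had a log2 fold change of −1.37 with PROTAC FAK degrader 1 and −0.57 with GSK215, and Junb rose by 0.77 with PROTAC FAK degrader 1. Tnc, a matrix protein gene of injured nerve, had −1.12 with PROTAC FAK degrader 1. GSK215 raised 10 of the 16 and lowered 3 (54.7% of all genes called), BSJ-04-0146 raised 9 and lowered 4 (54.6%), VS-4718 raised 11 and lowered 3 (39.2%) and PROTAC FAK degrader 1 raised 6 and lowered 9 (66.8%). Defactinib raised 6 and lowered 4 (22.4%), GSK2256098 raised 5 and lowered 1 (12.5%), and IN10018 raised 5 and lowered none (13.3%). The median over the 16 was 0.20, 0.24 and −0.30 with GSK215, BSJ-04-0146 and PROTAC FAK degrader 1.

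Of 30 other trophic ligand genes, 20 were tested. Pdgfa, Pdgfb and Vegfa had the highest means over the 24 libraries, at 157, 123 and 117 CPM in DMSO, where Hbegf (137 CPM) lay above Pdgfb and Vegfa. Of the 20, PROTAC FAK degrader 1 called 13, near its background of 66.8%. It lowered 8, with log2 fold changes of −0.80 for Pdgfa and −0.90 for Pdgfb, and raised 5, with Vegfa up by 0.83. Vegfa also rose with IN10018 (0.43) and moved the other way with GSK215 (−0.91), BSJ-04-0146 (−0.90), VS-4718 (−0.88) and GSK2256098 (−0.30). GSK215 raised 7 of the 20 and lowered 4, and BSJ-04-0146 raised 8 and lowered 4, both near the shares over all genes (54.7% and 54.6%). Defactinib raised 8 and lowered none (22.4%), VS-4718 raised 4 and lowered 4 (39.2%), GSK2256098 raised 3 and lowered 2 (12.5%), and IN10018 raised 1 and lowered 2 (13.3%). The 20 ligands had median log2 fold changes of 0.31, 0.23 and 0.074 with GSK215, BSJ-04-0146 and PROTAC FAK degrader 1.

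The drugs were also compared at equal dose and time in 3 pairs, with p-values adjusted over all genes within each pair. The first pair sets PROTAC FAK degrader 1, which carries a ligand derived from defactinib, against defactinib, both at 1 µM. Of the 7 members, 1 was higher with the degrader and 4 were lower, where 68.9% of all genes were called. Artn was 0.37 higher (SE 0.046, edgeR adjusted p = 2.7e-09). Gdnf differed by −0.24 (SE 0.040, edgeR adjusted p = 2.0e-06), Lif by −0.25 (SE 0.050, edgeR adjusted p = 2.6e-05), Ncam1 by −0.28 (SE 0.048, edgeR adjusted p = 2.9e-06) and Cntf by −1.0 (SE 0.26, edgeR adjusted p = 0.00097). In all 5, no library of the degrader overlapped one of defactinib. Nrg1 did not differ beyond its spread (log2 difference 0.024, 95% interval −0.13 to 0.17), nor did Bdnf (0.20, 95% interval −0.050 to 0.46), which was called only without defactinib replicate 1 (0.34, edgeR adjusted p = 0.029).

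The second pair sets the degraders GSK215 and BSJ-04-0146 against each other at 0.1 µM. Of the 7 members, 2 were higher with GSK215 and none lower, where 22.5% of all genes were called. Ncam1 was 0.33 higher (SE 0.050, edgeR adjusted p = 4.3e-06) and Gdnf 0.20 higher (SE 0.041, edgeR adjusted p = 0.000365), both without overlap. Artn and Nrg1, which changed most against DMSO, were not called between them, with log2 differences of −0.089 (95% interval −0.18 to 0.0025) and 0.089 (−0.11 to 0.28). Lif differed by 0.13 (95% interval 0.016 to 0.24, edgeR adjusted p = 0.096), Bdnf by 0.16 (−0.11 to 0.43) and Cntf by −0.17 (−0.73 to 0.38).

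The third pair sets the kinase inhibitors VS-4718 and defactinib against each other at 1 µM. Of the 7 members, 2 were higher with VS-4718 and 2 lower, where 34.0% of all genes were called. Gdnf was 0.31 higher (SE 0.038, edgeR adjusted p = 1.7e-08) and Artn 0.22 higher (SE 0.045, edgeR adjusted p = 0.00014). Lif differed by −0.28 (SE 0.048, edgeR adjusted p = 1.5e-05) and Ncam1 by −0.39 (SE 0.047, edgeR adjusted p = 1.4e-08). Nrg1 differed by −0.14 (95% interval −0.29 to 0.0041), Cntf by −0.50 (−0.99 to −0.022, edgeR adjusted p = 0.10) and Bdnf by 0.28 (0.035 to 0.52, edgeR adjusted p = 0.072), and none of them was called, apart from Bdnf without defactinib replicate 1 (0.40, edgeR adjusted p = 0.020). GSK215 is derived from VS-4718, but the 2 were given at 0.1 and 1 µM, so their values are only set side by side. Against DMSO, Nrg1 changed by −0.95 and −0.37, Artn by 0.64 and 0.34, Gdnf by 0.27 and 0.38, Ncam1 by 0.34 and −0.029 and Lif by −0.22 and −0.24 with GSK215 and VS-4718.

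For each tested member, the genes whose 8 group means of log2(CPM + 4) were most like its own were found by Pearson's r among symbols with a mean of at least 5 CPM. Artn was most like Inpp5e, Bmf and Arhgef19 (r = 0.992, 0.992 and 0.990) and Nrg1 was close to Fam60a and Gtpbp4 (r = 0.996 and 0.993). Gdnf was most like Gpatch8, Med23 and Il17rc (r = 0.987, 0.970 and 0.969), Ncam1 most like Xist, Tmem18 and Atl3 (r = 0.981, 0.934 and 0.933) and Lif most like Thoc7, Rnf217 and the pseudogene Hspd1-ps3 (r = 0.956, 0.938 and 0.936). The values were lower for Bdnf, with Arhgap28, Naaladl1 and Angel1 (r = 0.941, 0.937 and 0.926), and for Cntf, with Adam15, P3h1 and Ppib (r = 0.892, 0.886 and 0.885). Each r rests on 8 points from the same libraries and was picked as among the highest of 9817 or 9818 genes, so it is a description only. No member was among the 3 genes most like another member, but Bdnf and Cntf, with means below 5 CPM, could not be listed.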

How the data were processed

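RNA-seq libraries of 24 samples (8 groups of 3) were assigned to treatments by the library numbers in the labels. What the authors deposited are raw read counts for each Ensembl gene and library, not normalized. The submitters' processing notes name Trimmomatic 0.36, STAR 2.5.2b, Subread 1.5.2 with featureCounts and GRCm38; the annotation release and strand setting are not given in the sources used here, so antisense reads cannot be told apart. Libraries were poly(A)-selected. Of 49315 identifiers, 49056 were in GENCODE M21, which gave coordinates and exon lengths (the union of all exons).

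A quasi-likelihood model with a coefficient for each of the 8 groups (16 residual degrees of freedom) was fitted in edgeR 4.0.16 under R 4.3.3, after filterByExpr (minimum count 10) and TMM scaling; p-values were adjusted by Benjamini and Hochberg's method over 16070 genes, with 0.05 as the threshold. Each SE was taken as the size of the log2 fold change over the root of its F statistic. Exact permutation tests were two-sided. Depth limits Bdnf and Cntf, whose 95% intervals are the widest. Counting intervals and floors (3 counts) cover counting error only. Members, gene lists and tests were chosen with earlier results of these data known. From each list, the 3 genes with the highest mean CPM are named, and Ngfr, Erbb3, Jun, Dhh, Ihh, Gli1, Gli3, Ptch1, Hbegf and the receptor and enzyme genes with few or no reads were named after their values were seen; a few genes of the lists and of the likeness ranking are not reported here. Same-numbered replicates were not paired: 1 of 30 correlations of their deviations from the group means was over 0.1. Replicates differed by more than counting noise (chi-square per degree of freedom 1.80 to 9.45 over 24 pairs). Alternatives were DESeq2 1.42.0, library totals alone, no filter, limma 3.58.1 (limma-trend on log2(CPM + 4)), a replicate block, only the 6 libraries of a comparison, and leaving out each library. The code was tested on simulated data.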

Additional observations from a re-analysis of the deposited data

How the results depend on the processing

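Of 837 values of the 70 member results under the alternatives, 762 kept their direction and their side of the threshold, 36 lost the call, 10 gained it and 29 changed sign, all of these 29 uncalled. DESeq2 gave no adjusted p for 3 results of Cntf. The sign changes with DESeq2, limma-trend or no filter were Cntf with BSJ-04-0146 (−0.0091, −0.0014 and −0.023 on the log2 scale), Cntf with GSK2256098 (−0.00055 with limma-trend and −0.0019 with no filter) and Ncam1 with BSJ-04-0146 (−0.0078 with no filter). With library totals they were Ncam1 with VS-4718 (0.0091), Bdnf with IN10018 (0.0027) and Bdnf with BSJ-04-0146 (0.10). Leaving out 1 library at a time gave −0.029 to 0.039 for Bdnf with GSK2256098, −0.13 to 0.10 for Cntf with GSK2256098, −0.093 to 0.039 for Bdnf with IN10018, −0.041 to 0.020 for Bdnf with BSJ-04-0146, −0.18 to 0.10 for Cntf with BSJ-04-0146, −0.17 to 0.090 for Bdnf with defactinib, −0.022 to 0.084 for Nrg1 with PROTAC FAK degrader 1 against defactinib, −0.023 to 0.058 for Ncam1 with GSK2256098, −0.36 to 0.089 for Cntf with GSK215, −0.36 to 0.091 for Cntf with GSK215 against BSJ-04-0146 and −0.036 to 0.057 for Ncam1 with BSJ-04-0146. The number of genes called ranged from 1380 to 1824 with IN10018 (2136 with all libraries) and from 1298 to 1622 with GSK2256098 (2001). With library totals the median of all genes shifted by 0.12 for GSK215 and 0.11 for BSJ-04-0146, and the share of called genes that were higher moved from 50.2% to 68.3%, from 50.7% to 67.0% and, for VS-4718, from 51.9% to 62.6%. Relative to that median, Lif with GSK215 was −0.24 with library totals and −0.24 with TMM. The replicate block changed no call of the members, and called 8721 genes with GSK215 against 8786 without it. Depth limits Cntf, Gap43 and Shh.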
